A study of Hordeum vulgare with 22 samples.

Results

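The light-reaction genes of barley (Hordeum vulgare) were followed in young inflorescences of the cultivar Bowman and of mnd1.a. Members were taken from the gene annotation. A transcript belonged to the group where its description named a photosystem, a chlorophyll a-b binding protein, plastocyanin or a photosynthetic NDH subunit. The words matched 95 of 24318 annotated transcripts. Left out were 2 transcripts with the names of plastid products and 5 transcripts on chromosome 2H between 170 and 240 Mb, which left 88 members. The rule itself reads no measured value, but it was set with earlier results of these data known.

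Photosystem II uses light to take electrons from water, and photosystem I uses light to pass them on to ferredoxin. Plastocyanin, a small copper protein of the thylakoid lumen, carries electrons from the cytochrome b6-f complex to photosystem I, and the chlorophyll a-b binding proteins of the antenna gather light for both photosystems. In land plants the antenna proteins, plastocyanin and many of the smaller photosystem subunits are encoded in the nucleus, while the reaction centre proteins are encoded in the plastid genome, so that both genomes supply the same complexes.

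By role, the members comprised 27 antenna genes, 9 photosystem II genes, 9 photosystem I genes, 1 plastocyanin gene, 5 photosynthetic NDH genes, 5 genes of the PsbP family and 1 gene for a protein with a plastocyanin-like domain. The remaining 31 members bore the names of products that the plastid genome encodes in land plants, among them the D1 and D2 proteins, the CP43 apoprotein, the photosystem I apoproteins, the iron-sulfur centre protein PsaC and the assembly factors Ycf3 and Ycf4. For these 31 members the name goes against a nuclear origin, and whether their reads came from plastid transcripts or from nuclear copies was not tested; they are called the plastid-encoded type and described apart. The 88 members gave 76 distinct sets of counts, because some transcripts had identical counts in every library, and 17 members shared their counts with at least 1 other transcript. Such members cannot be told apart and are uncertain one by one.

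The wild-type libraries came from cv. Bowman and the mutant libraries from mnd1.a, a line near-isogenic to Bowman. Each library was made from total RNA of the inflorescence with its base and the small leaves beneath it, so leaf tissue was part of every sample. All plants grew under long days with a cooler night, and harvest fell around the middle of the day. Stages follow the Waddington scale: W2.0 is the double ridge stage, W3.5 the stamen primordium stage and W5.0 a later stage of floret development. The W2.0 stage has 3 libraries of each line, W3.5 has 4 of Bowman and 3 of mnd1.a, and W5.0 has 4 of each. Nothing in the labels ties a library to its own plants or to a pool, and the spread behind each p-value may therefore be partly technical. As mnd1.a is 1 line, its allele and anything else that this line carries cannot be told apart. In bulk tissue, a lower level from fewer cells of a type and one from less RNA per cell cannot be told apart either.

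The 21 libraries held 11436651 to 21596190 estimated counts, which is the depth behind all values. Levels are given as CPM, estimated counts divided by a library size corrected with the trimmed mean of M-values, and a floor of 3 counts corresponded to 0.13 to 0.25 CPM. MND1 itself (HORVU7Hr1G113480) averaged 14.7 ± 5.52 CPM (SD, n = 3) in the W2.0 libraries of Bowman and 5.6 ± 1.0 CPM (n = 3) in those of mnd1.a, and its mean was also lower in mnd1.a at W3.5 and W5.0. Transcripts for meristem and floret development were present in every group, with mean sums from 827 CPM in Bowman at W2.0 to 1610 CPM in Bowman at W5.0. The library codes begin with 1 of 2 prefixes. Both lines had the same prefix at W2.0 and both had the other at W3.5, while at W5.0 each line had its own. At W5.0 prefix and line therefore cannot be told apart. The prefix also changes from W2.0 to W3.5 in both lines and from W3.5 to W5.0 in mnd1.a, and it cannot be told apart from those steps.

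At W2.0 many genes of the antenna and both photosystems, and plastocyanin, were higher in mnd1.a than in Bowman. Among the 71 members that passed the filter on low counts, 25 were higher in mnd1.a at an adjusted p under 0.05 in edgeR's quasi-likelihood test, where 0.497% of all 21132 genes tested were called higher. None was lower (0 by edgeR, DESeq2 and limma-voom, and 0 at an unadjusted p under 0.05), where 0.293% of all genes were called lower. The 25 calls stand for 23 distinct sets of counts. Over the tested members the median log2 fold change was 1.29, or 2.44-fold, and over all genes tested it was -0.0083. Every mnd1.a library lay above every Bowman library in 53 of the 71 members, an order found in 9.41% of all genes tested. Transcripts with identical counts enter the 53 one by one, and the 71 hold 61 distinct sets of counts. Without the plastid-encoded type and the plastocyanin-like protein, 42 of 53 members had this order, and the median log2 was 1.72. Adjusted p-values below are from edgeR with Benjamini-Hochberg adjustment over all genes tested.

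Summed over the antenna genes, Bowman had 191.7, 160.6 and 108.4 CPM in its W2.0 libraries and mnd1.a had 451.5, 354.3 and 653.3 CPM. The mean of the sum was 3.17 times as high in mnd1.a. For photosystem I the sums were 83.4, 71.0 and 46.96 CPM in Bowman and 168.4, 123.1 and 234.6 CPM in mnd1.a, a ratio of means of 2.61. Photosystem II subunits summed to 40.1, 32.3 and 25.3 CPM in Bowman and to 88.3, 64.4 and 106.2 CPM in mnd1.a, a ratio of 2.65. In each of these classes the lowest mnd1.a library exceeded the highest Bowman library at W2.0, and the libraries of the lines overlapped at both later stages. Ribosomal-RNA-like transcripts, a list drawn from annotation words such as senescence-associated protein that mark sequences derived from ribosomal RNA, also differed in these W2.0 libraries. Their sums were 19139 to 28595 CPM in Bowman and 12718 to 15846 CPM in mnd1.a, 77 of 83 tested had a negative fold change with a median log2 of -0.70, and in 56 every mnd1.a library was below every Bowman library, although edgeR called 3. Their part in the difference of the light-reaction genes was not tested.

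**Figure D1:**
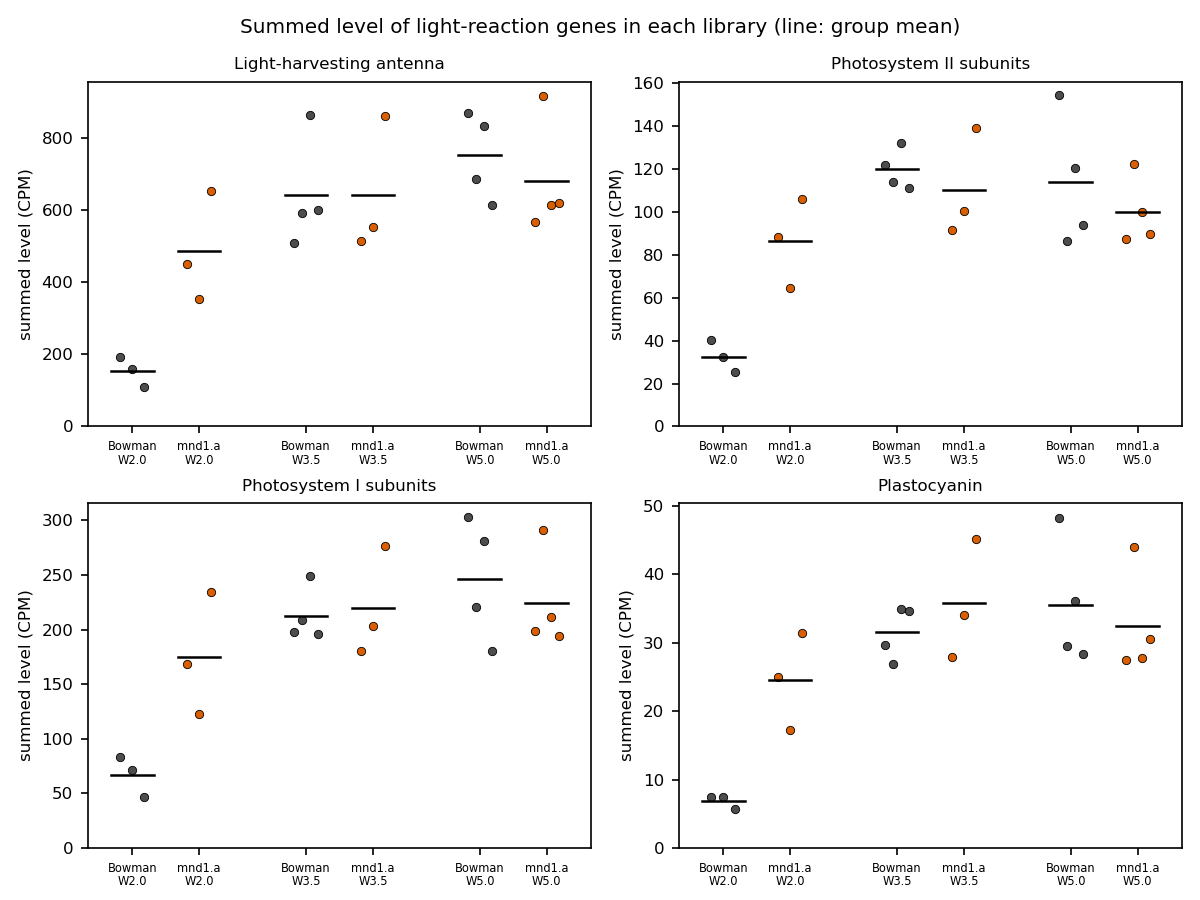
Summed level (CPM, linear axes from 0) of the antenna, photosystem II, photosystem I and plastocyanin genes in each library, by line and stage; each point is 1 library and each line a group mean. The Bowman libraries at W2.0 lie below all other groups in every panel, with antenna sums of 108.4 to 191.7 CPM.

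Of the antenna genes, 26 passed the filter and 12 of them (11 distinct sets of counts) were higher in mnd1.a at W2.0. All 26 had a positive fold change, with a median log2 of 1.98, or 3.95-fold, and in 24 every mnd1.a library exceeded every Bowman one. The called antenna genes ran from a log2 of 1.25 in HORVU7Hr1G046320 to 5.07 in HORVU1Hr1G078380.

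HORVU5Hr1G082420 (chromosome 5H, 567428912 to 567430229) stood at 12.1, 7.20 and 6.34 CPM in Bowman and at 35.8, 30.6 and 64.2 CPM in mnd1.a at W2.0. Its lines did not overlap, with a log2 fold change of 2.36 (SE 0.40, adjusted p = 0.00575), a call lost when only the W2.0 libraries were fitted (adjusted p = 0.0694). HORVU5Hr1G109360 (5H, 629695994 to 629696968) was low in Bowman at 1.58, 0.551 and 1.57 CPM and reached 6.52, 5.22 and 8.89 CPM in mnd1.a, a log2 fold change of 2.46 (SE 0.43, adjusted p = 0.00566) that limma-voom did not call (adjusted p = 0.0666). HORVU1Hr1G078380 (1H, 520109884 to 520111240) lay at or under the floor in every Bowman library, at 0.177, 0 and 0.0803 CPM, against 1.39, 1.40 and 4.814 CPM in mnd1.a. Its fitted log2 of 5.07 (SE 1.02, adjusted p = 0.0191) rests on few Bowman counts, and the call was lost without any 1 of the Bowman libraries (adjusted p 0.063 to 0.106), without mnd1.a replicate 3 (0.118), in limma-voom (0.363) and with only the W2.0 libraries fitted (0.0548).

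Other called antenna genes had smaller differences. The gene pair HORVU5Hr1G087250 and HORVU5Hr1G124160, whose counts were identical, averaged 23.9 CPM in Bowman against 70.9 CPM in mnd1.a at W2.0 (log2 1.57, adjusted p = 0.0106). The neighbouring genes HORVU1Hr1G088870 and HORVU1Hr1G088880 had log2 fold changes of 1.96 (adjusted p = 0.00626) and 2.13 (adjusted p = 0.00446). HORVU5Hr1G109260 was higher by a log2 of 2.00 (adjusted p = 0.00444) and HORVU2Hr1G036960 by 1.57 (adjusted p = 0.00878).

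Some antenna genes with large differences did not pass the test. HORVU7Hr1G058120, annotated as protein 1B, had 1.41, 0.737 and 0.401 CPM in Bowman and 6.45, 4.02 and 13.3 CPM in mnd1.a, and its log2 of 3.26 (SE 0.74) had an adjusted p of 0.0509. HORVU6Hr1G091650 had 0 counts in all Bowman libraries at W2.0 and 5.55, 3.43 and 4.09 CPM in mnd1.a. Against a floor of 3 counts over the Bowman group it was at least 62.9-fold higher in mnd1.a, and it was not called (adjusted p = 0.293). At W3.5 its Bowman libraries spread from 0 to 9.55 CPM, at least 53-fold above the floor at W2.0 by their mean, and the gene varied widely within the group.

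**Figure D2:**
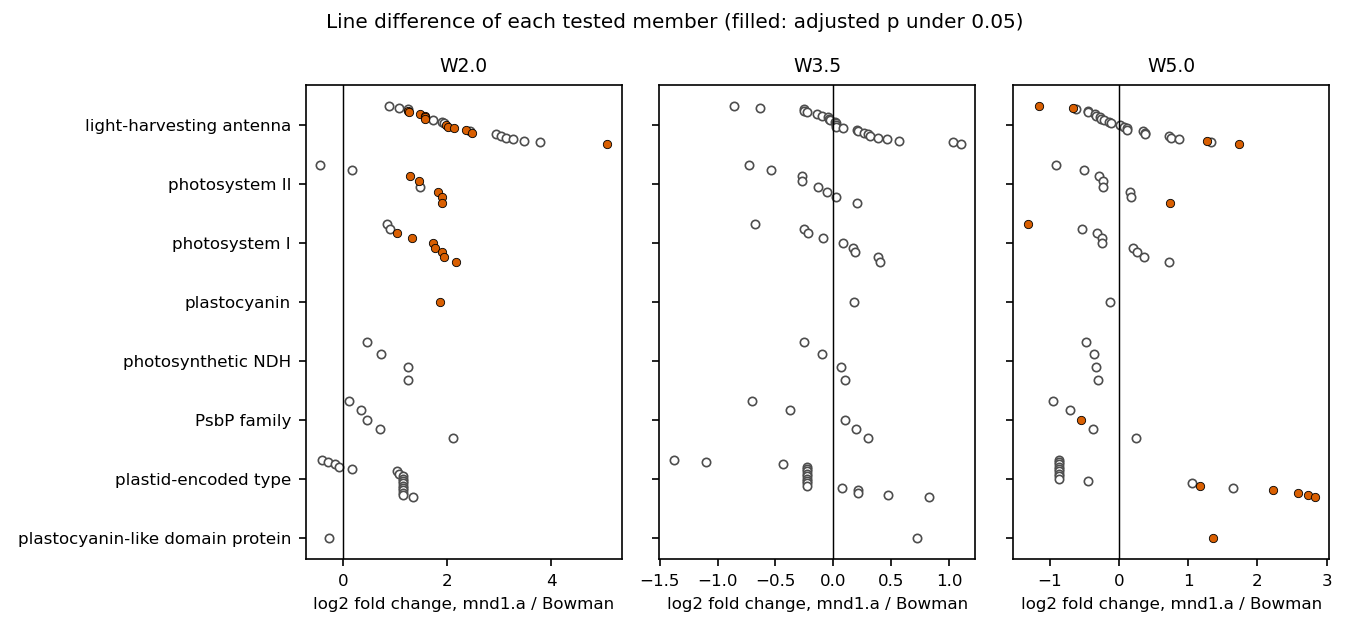
Log2 fold change of mnd1.a over Bowman for each tested member, by role, with 1 panel per stage; filled points passed an adjusted p under 0.05 in edgeR, and HORVU6Hr1G091650, at 0 in all Bowman W2.0 libraries, is not drawn. The antenna, photosystem I and plastocyanin points all lie to the right of 0 at W2.0, and no point is filled at W3.5.

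In photosystem II, 5 of 8 tested genes were higher in mnd1.a at W2.0, 7 had a positive fold change, and the median log2 was 1.46, or 2.74-fold. Called were the pair HORVU3Hr1G082730 and HORVU3Hr1G082740 for PsbS, the protein needed for the rapid, energy-dependent dissipation of excess light as heat. The other called genes encode PsbW (HORVU3Hr1G075870), the 10 kDa polypeptide known as PsbR (HORVU6Hr1G085170) and a 5 kD protein of the complex (HORVU6Hr1G015770).

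The PsbS pair lies side by side on 3H (600262542 to 600275064 and 600275457 to 600278158) and had identical counts, so it counts as 1 measurement. It stood at 4.02, 3.85 and 3.01 CPM in Bowman and at 14.2, 8.55 and 17.7 CPM in mnd1.a at W2.0, and both lines then lay in one range, with means of 20.1 and 16.60 CPM at W3.5. The W2.0 difference was a log2 of 1.90 (SE 0.25, adjusted p = 0.000481). PsbW had 9.98, 8.59 and 5.70 CPM in Bowman against 21.9, 18.3 and 25.7 CPM in mnd1.a at W2.0, a log2 of 1.45 (SE 0.21, adjusted p = 0.000825), and at W3.5 the lines shared a range of 20.3 to 26.3 CPM. The 5 kD gene (6H, 35207402 to 35208469) had 3.71, 3.03 and 2.65 CPM in Bowman against 9.82, 9.53 and 13.5 CPM in mnd1.a at W2.0, with no overlap (log2 1.81, SE 0.25, adjusted p = 0.000555). PsbR averaged 15.0 ± 3.78 CPM (n = 3) in Bowman and 36.4 ± 9.91 CPM (n = 3) in mnd1.a at W2.0, a log2 of 1.29 (SE 0.28, adjusted p = 0.0332).

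The photosystem II genes that were tested and not called were 3. Psb28 (HORVU3Hr1G086190), a factor that binds assembling photosystem II, had 0.530, 0.246 and 0.161 CPM in Bowman and 1.19, 0.561 and 0.875 CPM in mnd1.a (log2 1.47, adjusted p = 0.339). HCF136 (HORVU2Hr1G071940), known in Arabidopsis as an assembly factor, had a log2 of 0.16 (adjusted p = 0.964). HORVU5Hr1G094770, an 11 kDa protein of the Psb27 family, whose members take part in assembly and repair of the complex, had a log2 of -0.45 (adjusted p = 0.848) and was the only tested gene of the class with a negative value.

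In photosystem I, 7 of 9 genes were higher in mnd1.a at W2.0, all 9 had libraries that did not overlap, and the median log2 was 1.73, or 3.32-fold. PsaN (HORVU2Hr1G019820; 2H, 52015171 to 52016291), a lumenal subunit on the side where plastocyanin docks, stood at 4.15, 1.80 and 1.85 CPM in Bowman and at 11.4, 7.76 and 15.4 CPM in mnd1.a. Its log2 fold change was 2.16 (SE 0.32, adjusted p = 0.00113), and it was not called when only the W2.0 libraries were fitted (adjusted p = 0.0694). The reaction centre subunit XI, PsaL (HORVU3Hr1G009210), had 9.45, 7.86 and 5.78 CPM in Bowman against 27.7, 21.5 and 39.2 CPM in mnd1.a (log2 1.94, SE 0.28, adjusted p = 0.00105). PsaO (HORVU2Hr1G073370) had 6.006, 4.34 and 4.09 CPM in Bowman against 14.6, 9.81 and 29.1 CPM in mnd1.a (log2 1.91, SE 0.36, adjusted p = 0.0106), with mnd1.a replicate 3 far above the other libraries. This call was lost when that library, or either of Bowman replicates 2 and 3, was left out, in limma-voom (adjusted p = 0.0551) and with only the W2.0 libraries fitted (0.137).

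The other called subunits differed less. PsaF (HORVU5Hr1G100140), which docks plastocyanin, had a log2 of 1.73 (adjusted p = 0.0239), and PsaG (HORVU5Hr1G071920) had 1.75 (adjusted p = 0.0106). PsaD (HORVU5Hr1G109710), which docks ferredoxin, had 1.33 (adjusted p = 0.0258), and PsaK (HORVU2Hr1G060480) had 1.02 (adjusted p = 0.0478). Not called were PsaE (HORVU5Hr1G113900), with a log2 of 0.90 and an adjusted p of 0.159, and PsaH (HORVU0Hr1G001490), with 0.85 and 0.5. Stromal, lumenal and membrane subunits were thus all among the genes called.

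Plastocyanin (HORVU7Hr1G000900; 7H, 1865911 to 1869063) had 7.42, 7.45 and 5.62 CPM in Bowman at W2.0 and 25.0, 17.3 and 31.4 CPM in mnd1.a. At W3.5 it had 29.6, 26.8, 34.98 and 34.7 CPM in Bowman and 28.0, 34.1 and 45.2 CPM in mnd1.a, so that 1 of the W2.0 libraries of mnd1.a lay in the later range of its line and none of Bowman did in that of Bowman. The W2.0 difference was a log2 of 1.86 (SE 0.26, adjusted p = 0.000835). The ratio of means was 3.595 at the first stage and then 1.13 and 0.912.

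Neither the NDH genes nor the PsbP family passed the test at W2.0: 0 of 4 and 0 of 5 were called by edgeR, with 1 of each at an unadjusted p under 0.05. The chloroplast NDH complex returns electrons from ferredoxin to the plastoquinone pool. Its subunit gene HORVU7Hr1G023140 had 1.24, 1.47 and 0.963 CPM in Bowman and 2.98, 2.43 and 3.28 CPM in mnd1.a, with no overlap and a log2 of 1.24 (adjusted p = 0.0797). In the PsbP family, whose founding member belongs to the oxygen-evolving complex, HORVU2Hr1G086040 had 0.0883, 0.0818 and 0.482 CPM in Bowman and 1.29, 0.467 and 0.948 CPM in mnd1.a (log2 2.12, adjusted p = 0.133). HORVU7Hr1G113210, a PsbP family gene close to MND1 on 7H, had 14.3, 18.3 and 11.9 CPM in Bowman and 15.9, 14.3 and 17.6 CPM in mnd1.a (log2 0.11, adjusted p = 0.954). The gene with a plastocyanin-like domain (HORVU6Hr1G071700) had a log2 of -0.27 and was not called.

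Of the 88 members, 17 did not pass the filter: 14 of the plastid-encoded type, 1 antenna gene (HORVU6Hr1G016890), 1 NDH gene (HORVU2Hr1G090070) and 1 PsbW gene (HORVU1Hr1G078140). Calls also differed with depth. Of the 71 tested members, 39 had at least 10 counts in every Bowman library at W2.0, and 23 of these were called higher; of the other 32, 2 were called and 29 had a positive fold change. The count of 25 rests on few libraries: it fell to 13 when Bowman replicate 3 was left out, to 12 when mnd1.a replicate 3 was, and to 10 when only the 6 libraries of W2.0 were fitted, with the median log2 between 1.11 and 1.53 under all alternatives run over the same members.

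Libraries of a group were ranked alike by most members. Over 42 members of the antenna, the photosystems and plastocyanin with distinct counts, Bowman replicate 1 was the highest W2.0 library in 34 and replicate 3 the lowest in 32. In mnd1.a, replicate 3 was the highest W2.0 library in 40 and replicate 2 the lowest in 36. The same held later, with mnd1.a replicate 3 highest in 40 of 42 at W3.5 and mnd1.a replicate 2 highest in 39 of 42 at W5.0. Members thus moved together between libraries of 1 group, and they are not independent of one another.

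Genes that work beside the light reactions were also called at W2.0. In carbon fixation 5 of 24 tested genes were higher and 0 lower by edgeR. Among them were the Rubisco small subunit genes HORVU5Hr1G038630 and HORVU5Hr1G050990, with the same means and fitted values (6.18 ± 2.36 CPM in Bowman, 29.2 ± 5.68 CPM in mnd1.a, n = 3 each, log2 2.25, adjusted p = 0.00162). This pair cannot be told apart and enters the 5 as separate genes. Also higher was a phosphoribulokinase family gene (HORVU6Hr1G067660, log2 2.45, adjusted p = 0.029). In chlorophyll synthesis 2 of 30 were higher, the H subunit of magnesium chelatase (HORVU2Hr1G023560, log2 1.08, adjusted p = 0.0239) and a cyclase subunit gene (HORVU3Hr1G039930, log2 0.64, adjusted p = 0.0489). In the rest of the electron transport chain 1 of 28 was higher, the Rieske subunit of cytochrome b6-f (HORVU2Hr1G041610; means of 8.43 and 22.2 CPM, log2 1.40, adjusted p = 0.00129), which lies within the region of 2H left out of the group. Of 6 genes of the oxygen-evolving complex, a list added after the annotations were read, 1 was higher (HORVU0Hr1G003270, log2 1.16) and the median log2 was 0.90. The median log2 was 0.32 for carbon fixation, 0.046 for chlorophyll synthesis and 0.031 for the other electron transport genes, beside 1.29 for the light-reaction members.

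Other genes measured in the same libraries give the setting. Among 39 regulators of light response and greening, 2 were higher in mnd1.a at W2.0: HY5 (HORVU6Hr1G037760, log2 2.26), a bZIP factor that promotes responses to light, and CONSTANS-LIKE 16 (HORVU4Hr1G007420, log2 1.61). Of 117 genes annotated as 30S or 50S ribosomal proteins 0 were called, with a median log2 of -0.069. This list was picked by name and was not limited to plastid proteins. Of 42 genes for mitochondrial respiration 0 were called. Summed levels of epidermal and cuticle markers were 3969 to 4612 CPM in Bowman and 4711 to 4932 CPM in mnd1.a at W2.0, and those of vascular markers 3498 to 3698 and 3515 to 3933 CPM. None of the 141 epidermal and 63 vascular genes tested was called at this stage. Meristem and floret markers summed to 731 to 959 CPM in Bowman and 904 to 1014 CPM in mnd1.a, with 0 of 49 higher and 1 lower. No list isolates leaf cells from other green cells, so the part of leaf tissue in the W2.0 difference was not tested. Light stress genes, of which 2 could be tested and 0 were called at any stage by edgeR, summed to 1.77 to 3.27 CPM in Bowman and 6.05 to 6.64 CPM in mnd1.a.

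At W3.5 no member was called between the lines: 0 of 71 were called by edgeR, DESeq2 or limma-voom, where edgeR called 1.77% of all genes higher and 2.13% lower. At an unadjusted p under 0.05 there were 3 members, 1 of them higher. The median log2 was -0.039, and the summed antenna level had means of 642.3 ± 154.2 CPM (n = 4) in Bowman and 643.6 ± 190.1 CPM (n = 3) in mnd1.a. Every mnd1.a library was below every Bowman library in 1 member, as in 6.94% of all genes tested. This was PsaN, where Bowman had 19.4, 26.0, 17.3 and 23.5 CPM and mnd1.a 11.3, 13.8 and 15.2 CPM (log2 -0.68, adjusted p = 0.138). Without Bowman replicate 1, 2 members were called. In the same libraries 13 of 49 meristem and floret genes were lower in mnd1.a, while 2 of 30 chlorophyll synthesis genes were higher, chlorophyll synthase (HORVU6Hr1G074920, log2 2.90, adjusted p = 0.0388) and a protein that binds glutamyl-tRNA reductase (HORVU7Hr1G065990, log2 0.31, adjusted p = 0.0284). Chlorophyll synthase was low, with means of 0.081 CPM in Bowman, under the floor, and 0.65 CPM in mnd1.a.

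At W5.0 some members were higher and others lower in mnd1.a, without a common direction. Of the 71 tested, 9 were higher and 4 lower, or 18.3% in all, where 15.0% of all genes tested were called higher and 15.2% lower, or 30.2% in all. The share of members called was below that of all genes, and the count was 8 without Bowman replicate 2. The median log2 was -0.25, with 29 positive and 42 negative values, and the median turned to 0.069 without Bowman replicate 1. The PsaC transcripts with identical counts enter the 42 one by one. Without the plastid-encoded type and the plastocyanin-like protein there were 21 positive and 32 negative values, with a median of -0.23.

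PsaN was the photosystem I gene called at W5.0, with 33.0, 28.7, 34.8 and 20.3 CPM in Bowman and 10.3, 14.5, 12.002 and 9.83 CPM in mnd1.a. All mnd1.a libraries were lower, by a log2 of -1.32 (SE 0.24, adjusted p = 0.000584), the opposite side from W2.0. HORVU5Hr1G054000, an antenna protein of the C type, had 19.1, 21.5, 25.7 and 14.7 CPM in Bowman and 9.98, 10.7, 8.09 and 7.57 CPM in mnd1.a (log2 -1.15, SE 0.21, adjusted p = 0.000686). HORVU2Hr1G036960, also an antenna gene, was lower by a log2 of -0.66 (adjusted p = 0.0362) with overlapping libraries, and HORVU5Hr1G030330 of the PsbP family by -0.55 (adjusted p = 0.00994), from 5.27 to 5.83 CPM in Bowman to 3.24 to 4.63 CPM in mnd1.a.

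Higher in mnd1.a at W5.0 were 2 neighbouring antenna genes on 7H. HORVU7Hr1G040370 (109373213 to 109374502) had 2.43, 0.641, 1.63 and 1.91 CPM in Bowman and 4.25, 8.14, 4.82 and 5.11 CPM in mnd1.a, with all mnd1.a libraries above (log2 1.74, SE 0.38, adjusted p = 0.00243). HORVU7Hr1G040380 (109380305 to 109381501) had 2.69, 1.52, 2.17 and 3.44 CPM in Bowman and 3.95, 8.97, 6.27 and 4.62 CPM in mnd1.a (log2 1.27, SE 0.47, adjusted p = 0.0469), a call that 7 alternatives ended (adjusted p 0.0514 to 0.164). This gene was lower at the earlier stages: at W2.0 it had 0, 0 and 0.0803 CPM in Bowman and 0.0992, 0.374 and 0.729 CPM in mnd1.a, and at W3.5 it had 0.541, 0.998, 0.206 and 1.01 CPM in Bowman and 0.507, 0.0945 and 1.10 CPM in mnd1.a. The 5 kD photosystem II gene HORVU6Hr1G015770 was higher as well, by a log2 of 0.74 (adjusted p = 0.00923), with overlapping libraries.

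The other chloroplast lists also moved in both directions at W5.0. In carbon fixation 1 of 24 genes was higher and 4 lower, with Rubisco small subunit 1A (HORVU5Hr1G033540) lower by a log2 of -1.16 (adjusted p = 0.00449). In chlorophyll synthesis 8 of 30 were higher and 7 lower. The higher ones included 2 genes for protochlorophyllide reductase A, the light-dependent enzyme (HORVU2Hr1G119050, log2 3.79, adjusted p = 0.00483, and HORVU2Hr1G119090, log2 3.08, adjusted p = 0.00888), and chlorophyll synthase (log2 3.13, adjusted p = 0.00215). The Bowman means of these named genes were low, at 0.43, 0.27 and 0.096 CPM in that order, the last under the floor. Their means in mnd1.a were 6.20, 2.45 and 0.89 CPM. Of 28 other electron transport genes 6 were higher and 3 lower. Of the 117 genes for 30S or 50S ribosomal proteins, a list not limited to plastid proteins, 46 were higher and 4 lower. Of the epidermal markers 36 of 141 were higher and 1 lower, and of the vascular markers 14 of 63 were higher and 1 lower; their part in the member calls was not tested. All these counts stand beside the 15.0% of all genes called higher and 15.2% called lower at this stage.

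The gene with a plastocyanin-like domain, HORVU6Hr1G071700, was not called at W2.0 and was higher in mnd1.a at W5.0. Its Bowman libraries had 10.6, 9.08 and 7.22 CPM at W2.0 and 1.53, 0.881, 1.56 and 0.840 CPM at W5.0, while mnd1.a had 8.24, 6.17 and 7.88 CPM and then 3.26, 3.52, 4.00 and 1.77 CPM. It fell in Bowman over both steps, by log2 changes of -1.71 (adjusted p = 0.00108) and -1.15 (adjusted p = 0.0465), and stood higher in mnd1.a at W5.0 by a log2 of 1.36 (SE 0.34, adjusted p = 0.00603). Proteins with this domain include many that are not the photosynthetic electron carrier, and the annotation gives no more on this one.

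**Figure D3:**
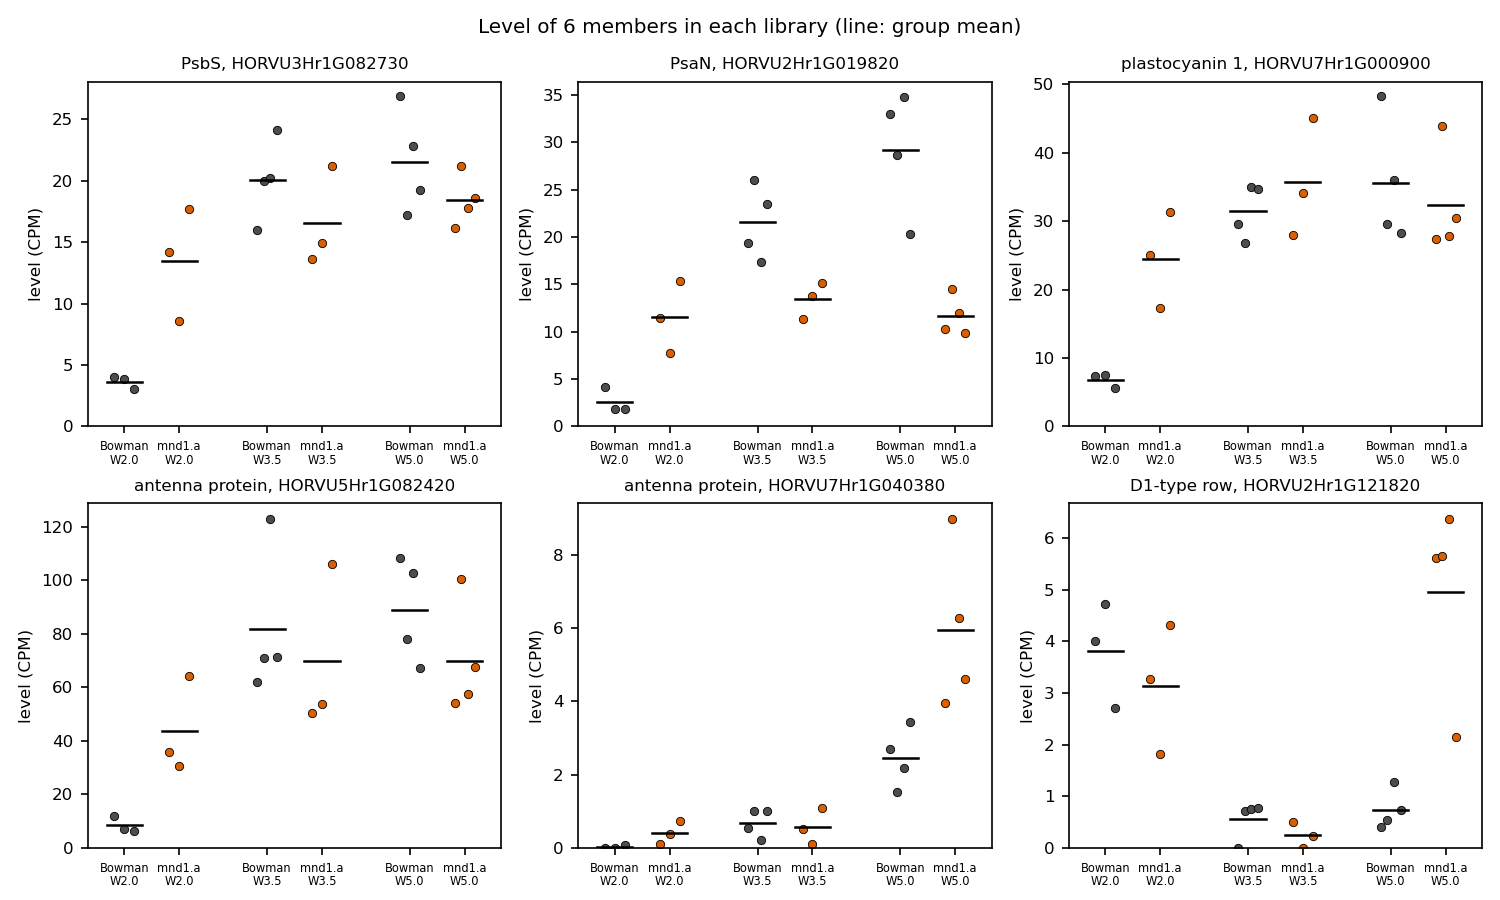
Level (CPM, linear axes from 0) of 6 members in each library, by line and stage; each point is 1 library and each line a group mean. PsbS, PsaN, plastocyanin and the antenna gene HORVU5Hr1G082420 are lowest in Bowman at W2.0, HORVU7Hr1G040380 has its highest values at W5.0, and the D1-type transcript HORVU2Hr1G121820 is low at W3.5 in both lines.

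In Bowman most of these genes rose between W2.0 and W3.5. In that step 49 of the 71 tested members (39 distinct sets of counts among them) rose and 3 fell, where 14.2% of all genes tested rose and 15.2% fell. The median log2 change was 1.94, or 3.84-fold. Among those that rose were 21 of 26 antenna genes, 8 of 9 photosystem I genes, 6 of 8 photosystem II genes and plastocyanin. The mean antenna sum rose 4.18-fold from 153.6 ± 42.1 CPM (n = 3) to 642.3 CPM, and the photosystem I and photosystem II sums were 3.17 and 3.68 times as high at W3.5.

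PsaN had the largest rise of the photosystem I genes called, by a log2 of 3.05 (SE 0.30, adjusted p = 1.68e-06). PsbS rose by 2.46 (SE 0.24, adjusted p = 1.18e-06), PsaL by 2.47 (SE 0.27, adjusted p = 7.41e-06) and plastocyanin by 2.21 (SE 0.25, adjusted p = 1.07e-05). Among antenna genes, HORVU5Hr1G082420 rose by 3.27 (SE 0.40, adjusted p = 3.15e-05), to 61.9, 70.9, 123.1 and 71.3 CPM. HORVU1Hr1G078380 rose by a fitted 5.87 (SE 0.94, adjusted p = 0.000335), to 2.55, 3.89, 6.09 and 5.44 CPM. The NDH gene HORVU7Hr1G023140 rose by 1.5 (SE 0.30, adjusted p = 0.00152) and the PsbP family genes HORVU2Hr1G086040 and HORVU3Hr1G078820 by 2.85 (adjusted p = 0.00121) and 0.98 (adjusted p = 0.0116).

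In mnd1.a the same step gave 0 higher calls and 1 lower, where 1.59% of all genes rose and 2.19% fell; DESeq2 and limma-voom also gave 0 higher calls. The lower call, of the D1-type transcript HORVU2Hr1G121820, was lost when mnd1.a W3.5 replicate 2 was left out and when W2.0 replicate 3 was, where 1 member rose instead. At an unadjusted p under 0.05 there were 8 members, 4 of them higher. The median log2 change was 0.26, and the antenna sum at W3.5 was 1.32 times that at W2.0. PsbS changed by 0.30 (adjusted p = 0.507), PsaN by 0.21 (adjusted p = 0.719), PsbW by 0.06 (adjusted p = 0.9) and plastocyanin by 0.54 (adjusted p = 0.215). In this step epidermal markers fell in both lines, 56 of 141 genes in Bowman and 10 in mnd1.a, and so did vascular markers, 25 of 63 in Bowman and 11 in mnd1.a. Of the 117 genes for 30S or 50S ribosomal proteins, 44 fell in Bowman and 1 in mnd1.a. Meristem and floret markers rose in 23 of 49 genes in Bowman and in 1 of 49 in mnd1.a. The part of these lists in the change of the light-reaction genes was not tested.

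**Figure D4:**
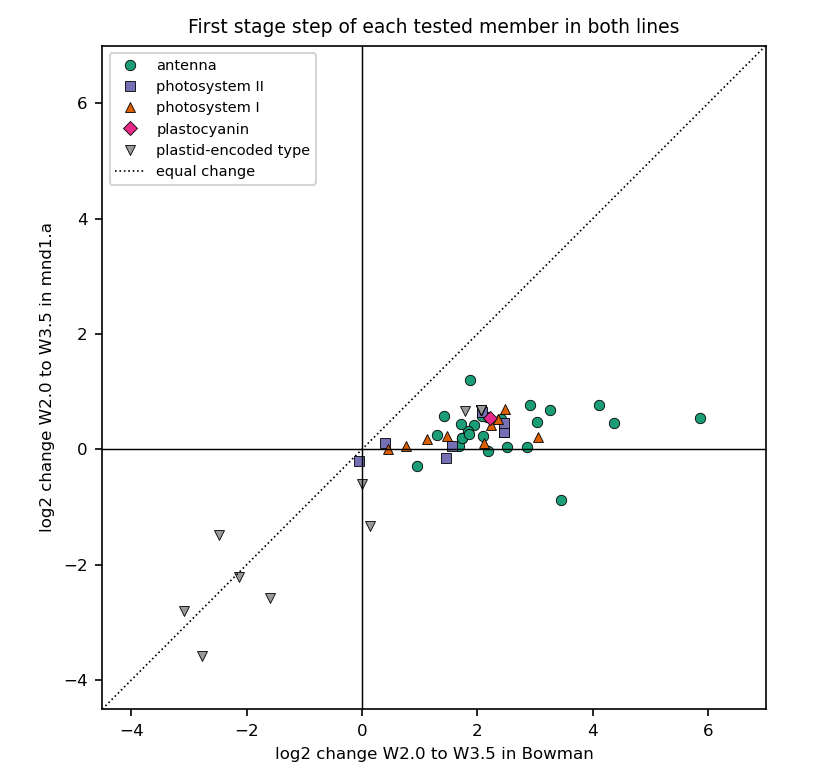
Log2 change from W2.0 to W3.5 in Bowman (x axis) and in mnd1.a (y axis) for tested members of 5 classes, with a dotted line of equal change; HORVU6Hr1G091650 is not drawn. Antenna, photosystem and plastocyanin points lie to the right of 0 near the horizontal axis, with 1 photosystem II gene slightly to the left. The 9 PsaC transcripts fall on 1 point beside PsbI, and the other plastid-encoded-type points lie below 0 in mnd1.a.

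The difference between the lines was itself tested as a line-by-stage term. From W2.0 to W3.5, 4 of 71 members passed, all with a negative term (the log2 change in mnd1.a minus that in Bowman), where 0.0568% of all genes tested passed with a positive and 0.133% with a negative term. They were PsaN (log2 -2.84, SE 0.41, adjusted p = 0.00671), the PsbS pair (-2.16, SE 0.33, adjusted p = 0.00744) and PsbW (-1.5, SE 0.28, adjusted p = 0.0276). At an unadjusted p under 0.05 there were 39, all negative, and 67 of the 71 values were negative with a median of -1.38. The PsaC transcripts with identical counts enter the 67 and this median one by one. Without the plastid-encoded type and the plastocyanin-like protein, 52 of 53 values were negative, with a median of -1.59. Plastocyanin missed the threshold (-1.67, SE 0.34, adjusted p = 0.055). The number of calls varied with the fit: DESeq2 gave 26, the fit of only the 4 groups concerned gave 0, and leaving out Bowman W3.5 replicate 1, mnd1.a W2.0 replicate 2 or mnd1.a W3.5 replicate 3 gave 13, 7 and 26. PsbW lost its call under 7 alternatives, and PsaN and PsbS lost theirs when only the groups concerned were fitted (adjusted p = 0.0814).

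From W2.0 to W5.0, 31 members had a negative term and 2 a positive one, where 5.19% of all genes tested passed with a negative and 5.09% with a positive term. Over this interval only Bowman changed library code prefix, and the prefix and this term cannot be told apart. These terms share the W2.0 libraries with those above. The 31 comprised 15 antenna genes, 6 of photosystem II, 6 of photosystem I, plastocyanin, 1 NDH gene and 2 of the PsbP family. PsaN had the value -3.48 (SE 0.39, adjusted p = 1.36e-05), PsbS -2.12 (SE 0.32, adjusted p = 0.000377), PsaL -2.19 (SE 0.35, adjusted p = 0.000976) and plastocyanin -1.99 (SE 0.33, adjusted p = 0.00127). The Psb28 term (HORVU3Hr1G086190) was lost in limma-voom (adjusted p = 0.0658) and without any 1 of 5 libraries (0.0513 to 0.081). The 2 positive terms were those of HORVU6Hr1G071700, whose mean at W5.0 was 0.134 times that at W2.0 in Bowman and 0.422 times in mnd1.a, and of the D1-type transcript HORVU2Hr1G121820, whose mean went from 3.82 to 0.74 CPM in Bowman and from 3.14 to 4.95 CPM in mnd1.a. The former was lost when any 1 of 10 libraries was left out (adjusted p 0.0539 to 0.0938) and the latter when any 1 of 3 was (0.0537 to 0.0702). From W3.5 to W5.0, 0 members passed by edgeR or limma-voom and 1 by DESeq2, where edgeR called 0.733% of all genes with a positive and 0.284% with a negative term; 4 had an unadjusted p under 0.05, and 1 passed when Bowman W3.5 replicate 1 was left out.

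The W2.0 libraries of mnd1.a can be set beside those of Bowman one stage later as a description, with stage and library code prefix differing between them. Of 44 tested members of the antenna, the photosystems and plastocyanin, 41 overlapped, 3 were lower in every mnd1.a library and 0 were higher. Overlap between these groups was not counted over all genes, so the 41 cannot be read as equal levels. The median ratio of means was 0.777. The 3 lower genes were PsaN (0.534), PsbR (0.578) and HORVU5Hr1G054000 (0.516).

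From W3.5 to W5.0, 2 of the 71 tested members (2.82%) were called in Bowman and 9 (12.7%) in mnd1.a. Of all genes tested, 7.59% were called in this step in Bowman and 10.1% in mnd1.a. In Bowman 1 member rose and 1 fell to W5.0, where 3.89% of all genes rose and 3.70% fell; they were HORVU7Hr1G040380 (log2 1.93, SE 0.54, adjusted p = 0.0372) and HORVU6Hr1G071700. Without Bowman W3.5 replicate 1, or without W5.0 replicate 2, 3 or 4, there were 0 calls, without W3.5 replicate 2 there was 1, and without W3.5 replicate 4 there were 4. In mnd1.a, whose library code prefix changes with this step, 7 rose and 2 fell, where 5.12% of all genes rose and 5.01% fell. The antenna genes among them were HORVU7Hr1G040380 (log2 3.34, SE 0.60, adjusted p = 0.00171), HORVU7Hr1G040370 (1.56, SE 0.42, adjusted p = 0.0234) and HORVU5Hr1G109250 (1.5, SE 0.44, adjusted p = 0.0395), which rose, and HORVU5Hr1G054000, which fell by 0.75 (adjusted p = 0.0439). HORVU7Hr1G051160 of the PsbP family fell from 2.45, 4.06 and 3.14 CPM to 0.790, 1.39, 1.09 and 0.688 CPM (log2 -1.68, SE 0.45, adjusted p = 0.0218). The other 4 that rose were of the plastid-encoded type. In mnd1.a the count of 9 was 4 without W3.5 replicate 1, 3 without W3.5 replicate 2, and 4, 5 and 5 without W5.0 replicates 1, 2 and 4.

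The plastid-encoded type was called mainly at W5.0 and in the first stage step. At W2.0 none of its 17 tested transcripts was called between the lines by edgeR, with 1 at an unadjusted p under 0.05. At W5.0, 5 of the 17 were higher in mnd1.a and 0 lower by edgeR, where 15.0% of all genes were higher and 15.2% lower. The type had no common direction at W5.0, with 7 positive and 10 negative values. Of the 17, 9 are the PsaC transcripts, which count as 1 measurement, and their log2 of -0.87 is the median. At an unadjusted p under 0.05 in edgeR there were 15 of the 17, and 6 of these were higher. The D1-type transcript HORVU2Hr1G121820 (2H, 751783858 to 751784919), named for the reaction centre protein of photosystem II, had 0.401, 0.540, 1.28 and 0.733 CPM in Bowman at W5.0 and 5.63, 5.66, 6.37 and 2.15 CPM in mnd1.a (log2 2.73, SE 0.56, adjusted p = 0.00162). It was high in both lines at W2.0, with 4.00, 4.73 and 2.72 CPM in Bowman and 3.27, 1.83 and 4.31 CPM in mnd1.a, and at or below 0.764 CPM in every library at W3.5. It fell in both lines from W2.0 to W3.5, by log2 changes of -2.77 in Bowman (adjusted p = 0.00304) and -3.58 in mnd1.a (adjusted p = 0.0144), and it rose in mnd1.a from W3.5 to W5.0 by 4.24 (adjusted p = 0.00132).

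The other transcripts of this type called at W5.0 were low. HORVU5Hr1G004630 had 0, 0.540, 0.892 and 0.619 CPM in Bowman and 3.37, 2.39, 2.66 and 1.04 CPM in mnd1.a (log2 2.23, SE 0.66, adjusted p = 0.0165). The CP43-type transcript HORVU2Hr1G062030 had 0.481 to 1.08 CPM in Bowman and 1.38 to 2.17 CPM in mnd1.a (log2 1.17, adjusted p = 0.0382). HORVU2Hr1G062060 had 0.188, 0, 0 and 0.105 CPM in Bowman and 0.377, 0.684, 0.739 and 0.689 CPM in mnd1.a (log2 2.83, SE 0.89, adjusted p = 0.0223). HORVU3Hr1G004790 had 0.102, 0, 0.531 and 0.146 CPM in Bowman and 2.32, 0.874, 0.841 and 0.570 CPM in mnd1.a (log2 2.59, SE 0.82, adjusted p = 0.0228). In each of these transcripts every mnd1.a library was above every Bowman library, an order found in 17.9% of all genes tested at W5.0. The call of HORVU2Hr1G062060 was lost without Bowman replicate 2 or 3, and that of HORVU3Hr1G004790 without mnd1.a replicate 1 or Bowman replicate 1, 2 or 4.

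A set of 9 PsaC transcripts with identical counts rose in Bowman, from 0.106, 0.0900 and 0.169 CPM at W2.0 to 0.510, 0.569, 0.501 and 0.383 CPM at W3.5 (log2 2.07, SE 0.51, adjusted p = 0.00583). With PsbI (HORVU0Hr1G034290, log2 1.79, adjusted p = 0.00963) they make up the 10 transcripts of this type that rose in that step, while HORVU2Hr1G121820 and HORVU0Hr1G024720 fell. The latter went from 1.16, 1.23 and 1.29 CPM to 0.195, 0.0221, 0.221 and 0.0873 CPM (log2 -3.08, SE 0.77, adjusted p = 0.00596). As the 9 PsaC transcripts cannot be told apart, they are 1 measurement among the 49 calls.

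In mean summed level, the plastid-encoded type, other plastid-encoded products and ribosomal-RNA-like transcripts all fell from W2.0 to W3.5 in both lines. At W5.0 each of these sums was higher in mnd1.a than in Bowman. Single transcripts did not all follow the sums. In Bowman from W2.0 to W3.5, 10 of the 17 tested transcripts of the type rose and 2 fell. Of 83 ribosomal-RNA-like transcripts tested, 72 fell and 1 rose in that step. The summed level of the type in Bowman was 7.98 to 12.8, 2.67 to 5.27 and 4.63 to 9.15 CPM at the 3 stages in order, and in mnd1.a 7.61 to 13.8, 3.71 to 5.30 and 11.7 to 22.9 CPM. Ribosomal-RNA-like transcripts summed to 19139 to 28595 CPM in Bowman at W2.0 and to 2118 to 3541 CPM at W5.0. In mnd1.a their sums were 12718 to 15846, 2203 to 3251 and 23542 to 27109 CPM, so that they were high in the 3 groups that share the first prefix of the library codes. At W5.0, 75 of 83 such transcripts tested were higher in mnd1.a, and so were 9 of 20 transcripts for other plastid-encoded products, a list added after the annotations were read. The part of ribosomal RNA content, or of the prefix, in the W5.0 calls of this type was not tested.

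**Figure D5:**
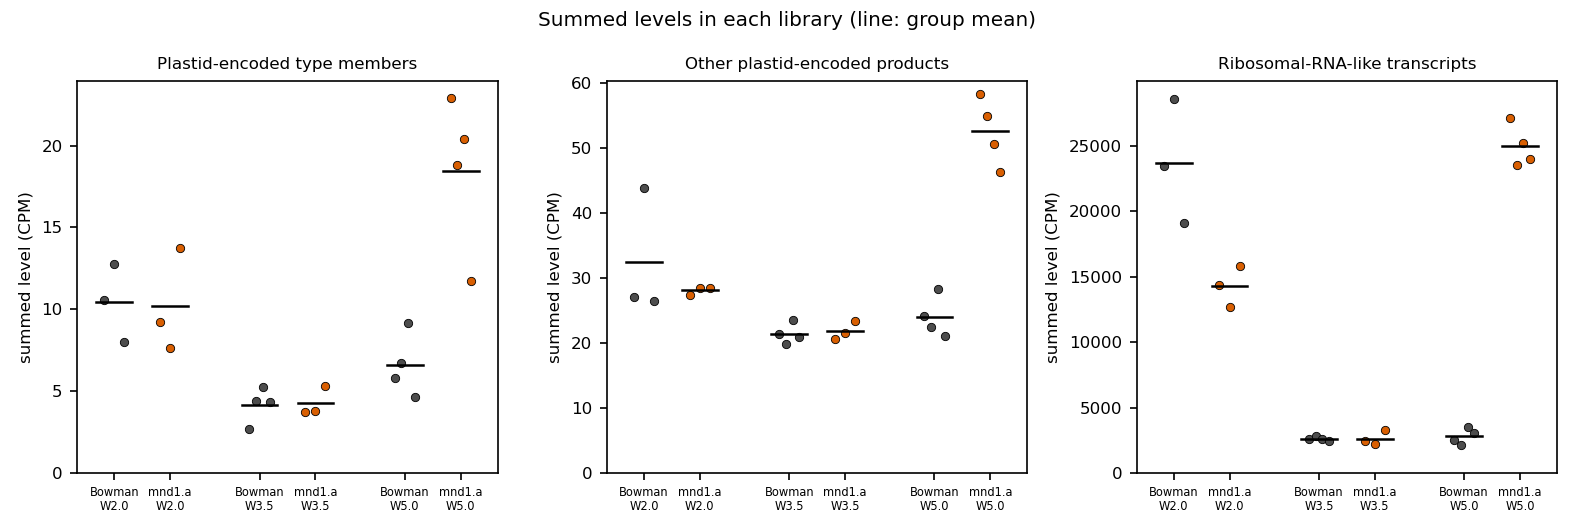
Summed level (CPM, linear axes from 0) of the plastid-encoded-type members, of other plastid-encoded products and of ribosomal-RNA-like transcripts in each library, by line and stage; each point is 1 library and each line a group mean. Ribosomal-RNA-like sums are at least 12718 CPM in both lines at W2.0 and in mnd1.a at W5.0 and at most 3541 CPM in the other 3 groups.

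The lower limit of the chosen region on 2H lay between HORVU2Hr1G036960 and HORVU2Hr1G038940. The former starts at 167627986 and was kept. The latter starts at 185335712 and was left out. It had Bowman means of 0.848, 0.135 and 0.0878 CPM and mnd1.a means of 0.148, 0.0315 and 0.0477 CPM at the 3 stages. Among the other transcripts left out, the antenna gene HORVU2Hr1G040780 averaged 19.4 CPM at W2.0 in Bowman, against 72.2 CPM in mnd1.a. The NDH transcript HORVU2Hr1G042420 was almost at 0 in Bowman at every stage: its means were 0.029 to 0.038 CPM in Bowman and 3.74, 4.44 and 5.95 CPM in mnd1.a.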

How the data were processed

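RNA-seq of barley inflorescences was deposited for 22 samples. The authors deposited estimated counts per transcript, not normalized, with 94.9% of values not whole, per the file headers and values. Salmon, BWA 0.7.15, limma and GATK are named in the submitters' processing notes with no role or order, and the annotation is credited to Mascher et al. per the file headers. No genome build is given in the sources used here. The authors' deposited table also gives log2 fold changes and FDR-adjusted p-values for the lines at each stage; the count columns of the middle stage are headed W3.0 while the labels give W3.5, and across genes the refit of these columns correlated best with the authors' deposited W3.5 fold changes (Pearson r 0.912). The authors' deposited table lists members at an FDR under 0.05 as follows: 22 were higher and 0 lower at W2.0, 0 differed at W3.5, and 17 were higher and 4 lower at W5.0.

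Of 42 per-sample columns, 21 matched labelled samples of Bowman and mnd1.a, and the other 21 were not used. The cv. Mesa sample was not analysed here. Estimated counts were rounded and filtered with edgeR's filterByExpr (minimum count 10, minimum total 15), which kept 21132 genes and removed 3186. Library sizes were scaled with TMM (factors 0.902 to 1.08). A quasi-likelihood model with 1 mean for each of 6 groups was fitted to all 21 libraries in edgeR 4.0.16 under R 4.3.3, and p-values were adjusted over all genes tested, with 0.05 as threshold. SE is the absolute log2 fold change divided by the square root of F. The scripts were tested on simulated data. Alternatives were other scalings, no filter, DESeq2 1.42.0, limma-voom (limma 3.58.1), only the groups compared, a stricter threshold, each library left out, and members with shared counts left out.

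Values per library were given, by rule, for up to 3 called members of each role with the largest fold change in each line comparison, for up to 3 with a called line-by-stage term, for members called against the majority of their role, for up to 2 in each stage step, and for the member with the highest mean level in roles without a call. Pathway genes are up to 3 of the called genes with the largest fold change in each list. Other members named, and the transcripts left out, were chosen after their values were seen. The members and the gene lists were chosen with earlier results of these data known. The division into plastid-encoded type, PsbP family and plastocyanin-like protein, and the lists for the oxygen-evolving complex and for other plastid-encoded products, were made after the annotations were read. Counting was not stated to use strand, and no transcript lengths were at hand, so levels are compared between samples and not between genes. Planned counts of promoter motifs were not made because no sequence was at hand.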

Additional observations from a re-analysis of the deposited data

Results flagged for a closer look

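Single libraries stood far from the rest of their group in 7 cases, by Dixon's 95% critical value. Chance alone marks about 1 in 20 groups, and the 7 were not set against the number of groups examined. High were HORVU5Hr1G109360 in mnd1.a at W5.0 (20.5 CPM in replicate 2), HORVU5Hr1G082420 in Bowman at W3.5 (123.1 CPM in replicate 3), and PsaL (HORVU3Hr1G009210) in Bowman at W3.5 (55.2 CPM in replicate 3) and in mnd1.a at W5.0 (58.3 CPM in replicate 2). Low were HORVU5Hr1G030330 in Bowman at W5.0 (5.27 CPM), HORVU2Hr1G062060 in mnd1.a at W5.0 (0.377 CPM) and the D1-type transcript HORVU2Hr1G121820 in Bowman at W3.5 (0 CPM).

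The lines differed in their change over the stages, by the test of the line-by-stage term in edgeR, in 4 members from W2.0 to W3.5 and in 33 from W2.0 to W5.0. For the first interval the log2 terms were -2.16 for the PsbS pair HORVU3Hr1G082730 and HORVU3Hr1G082740, -1.499 for PsbW (HORVU3Hr1G075870) and -2.84 for PsaN (HORVU2Hr1G019820).

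Over the longer interval the antenna genes HORVU1Hr1G078380, HORVU7Hr1G058120 and HORVU5Hr1G082420 had terms of -5.52, -3.88 and -2.71, the first and second of which limma-voom did not call (adjusted p 0.0819 and 0.0918). In photosystem II, Psb28 (HORVU3Hr1G086190) had -2.38, a call lost under 6 alternatives (adjusted p 0.0513 to 0.081), and the PsbS pair -2.12, and in photosystem I, PsaN had -3.48, PsaO (HORVU2Hr1G073370) -2.45 and PsaL -2.19. Plastocyanin (HORVU7Hr1G000900) had -1.99, the NDH gene HORVU7Hr1G023140 -1.57, and the PsbP family genes HORVU2Hr1G086040 and HORVU5Hr1G030330 -3.07 and -0.88. The calls of these 2 PsbP family genes and of the NDH gene were each lost when 1 or another library was left out (adjusted p 0.0529 to 0.0726). In the other direction, HORVU2Hr1G121820 had 3.02 and HORVU6Hr1G071700 had 1.63, calls lost without any 1 of 3 and of 10 libraries (adjusted p 0.0537 to 0.0938).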

How the results depend on the processing

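No paired analysis was possible because the labels give no replicate numbers and nothing ties the numbers in the column headers to shared plants, batches or days. The number of members called at W2.0, 25 as reported, was 10 with only the groups compared and 13 under a stricter threshold (adjusted p below 0.01 and a change of 2-fold or more). Over the alternatives of scaling, filter, tool and members it was 21 to 32. With the transcripts left out kept as members, there was 1 call at W3.5, 2 in the line-by-stage term from W3.5 to W5.0 and 2 in mnd1.a from W2.0 to W3.5. The stricter threshold gave 5 calls at W5.0, 17 in the line-by-stage term from W2.0 to W5.0, 0 in Bowman from W3.5 to W5.0, 0 in mnd1.a from W2.0 to W3.5 and 3 in mnd1.a from W3.5 to W5.0. DESeq2 gave 26 and 1 in the line-by-stage terms to W3.5 and from W3.5, and 5 and 2 in Bowman from W3.5 to W5.0 and mnd1.a from W2.0 to W3.5. For those steps limma-voom gave 4 and 0, and only the groups compared gave 0 and 2; the latter gave 0 for the line-by-stage term to W3.5, and members with shared counts left out gave 2. Without a filter there was 1 call in Bowman from W3.5 to W5.0. Restricted to the antenna, photosystem and plastocyanin genes, an alternative chosen after seeing the data, the counts were 6 at W5.0, 1 in Bowman from W3.5 to W5.0, and 0 and 4 in mnd1.a over its steps.

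Leaving out 1 library at a time gave 12 to 29 calls at W2.0, 0 to 2 at W3.5 and 8 to 14 at W5.0. The line-by-stage terms gave 3 to 26 from W2.0 to W3.5, 0 to 1 from W3.5 to W5.0 and 22 to 38 from W2.0 to W5.0. The stage steps gave 42 to 54 and 0 to 4 in Bowman and 0 to 1 and 3 to 11 in mnd1.a. The median log2 at W5.0, -0.25 as reported, ran from -0.31 to 0.069, and it was above 0 only without Bowman W5.0 replicate 1. The cause of these changes was not tested. In the line and line-by-stage comparisons, named members lost a call in 62 combinations of member, comparison and alternative. Depth limits the low members: in Bowman at W2.0 a level of 0.20 to 0.22 CPM, depending on the library, rests on 3 counts.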
